A study of Mus musculus with 4 samples.

Results

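The 10 genes described here, all of the fibroblast-type extracellular matrix, were followed on 4 Affymetrix mouse genome arrays of mouse embryonic stem (ES) cells, the self-renewing cells of the early embryo. They were chosen by symbol: Col1a1, Col1a2, Col3a1, Col5a1, Col5a2, Postn, Lox, Thy1, Lum and Dcn. All 10 were on the arrays, with 20 of the 34945 probe sets that name a single gene, and they make up 10 of 18193 named genes. There was 1 array for each of 4 groups. The first carries the label of a Ring1B knockout (KO) made constitutively, and the second that of its wild-type control. The third carries the label of a double KO of Ring1A and Ring1B, made conditionally and taken on day 4, and the last that of its own wild-type control. The conditional line was made because cells lacking both proteins from the start cannot be kept in culture, and the deletion was induced with OHT (4-hydroxytamoxifen). The labels name no ES cell line, number of clones, feeder layer or medium, and they do not say whether the controls received OHT. A day is given for the double KO array but not for its control. Both proteins belong to the Polycomb group, whose complexes hold developmental genes silent in chromatin.

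Fibrillar collagens are the rope-like proteins of connective tissue. Their chains wind into triple helices inside the cell, are trimmed after secretion and assemble into fibrils that lysyl oxidase cross-links. Fibroblasts and other mesenchymal cells make most of them, and the feeder fibroblasts on which ES cells are often grown express them strongly, while undifferentiated ES cells are known for little fibrillar matrix. In RNA from a whole culture, fewer cells of a type and less RNA per cell cannot be told apart.

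Signals were brought to a common 2%-trimmed mean per array, and values at or below 36.6 on that scale, the floor, were treated as having no order. Differences are given on the log2 scale, as the KO or double KO array minus the control of the same pair. A fold against an array at the floor is a lower bound, written "at least". With 1 array per group no difference has a replicate check or a test, and a 2-fold difference is used only as a fixed size for counting. The labels could not be checked by their targets. Rnf2, which encodes Ring1B, read 2775 on the array labelled as Ring1B KO against 2579.7 on its control, and 1986 in the double KO sample against 2182 in its control. Ring1, which encodes Ring1A, read 55.6 on the array labelled as double KO against 44.7 on its control. Whether these probe sets lie in the deleted parts is not known here, so the arrays are called by their labels throughout. Whether the labels of a pair were exchanged was not tested, and an exchange would turn the sign of every difference within that pair. The ES cell label was checked against its markers, and all 14 ES cell marker genes were above the floor on every array. Pou5f1, a pluripotency factor gene, read 4879.6 and 5988 on the arrays labelled as Ring1B KO and its control and 7581 and 4304 on those labelled double KO and its control.

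The stromal matrix genes were lower together on the array labelled as double KO, and slightly higher together on the array labelled as Ring1B KO, each against the control of its pair. Of the 10 genes, 9 were at least 2-fold lower on the array labelled as double KO, against 9.99% of the 12353 genes that passed the floor on either array, and all 10 were lower at some size, against 54.7% of genes. None was at least 2-fold higher, against 3.02% of genes. At least 3-fold lower were 8 of the 10 genes, against 435 of the 12353. Lum, which did not reach 2-fold, had only a bound. None was at least 2-fold apart in the Ring1B comparison, where 6.15% of 12343 genes were (3.54% higher and 2.61% lower), but all 9 genes with a measured difference were higher, against 48.1% of genes higher at any size. The median log2 difference was -1.79 for the 10 genes in the double KO comparison and 0.53 for the 9 genes in the Ring1B comparison. Over all genes compared it was -0.05 and -0.02.

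**Figure D1:**
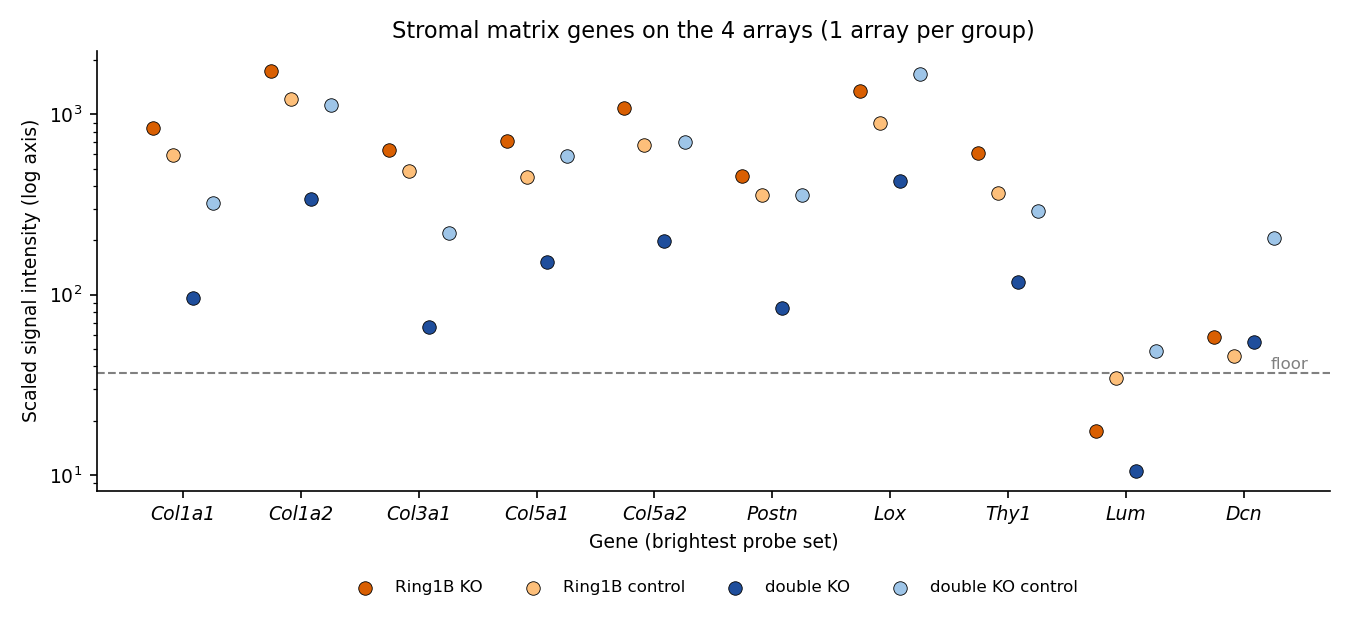
Scaled signal of each stromal matrix gene at its brightest probe set (vertical axis, log scale) on the 4 arrays, 1 point per array. The dashed line is the floor of 36.6. The array labelled as double KO gave the lowest point for 8 of the 9 genes above the floor everywhere, and Dcn and Lum lie near or below the floor on most arrays.

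Type I collagen, the main fibril of skin, tendon and bone, is built of chains encoded by Col1a1 and Col1a2. Col1a1 read 96.2 on the array labelled as double KO against 324 on its control, and 841 on the array labelled as Ring1B KO against 595 on its control. Col1a2 read 339.6 on the array labelled as double KO against 1133 on its control, and 1747 on the array labelled as Ring1B KO against 1214 on its control. At their brightest probe sets the partner chains thus differed by nearly the same factor within each pair. Col1a1 and Col1a2 were 3.37-fold and 3.33-fold lower on the array labelled as double KO, and 1.41-fold and 1.44-fold higher on the array labelled as Ring1B KO.

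Type III collagen, a homotrimer of the Col3a1 chain found with type I in elastic tissues, followed the same course. Col3a1 read 66.4 on the array labelled as double KO against 221 on its control, a 3.33-fold lower signal. It read 633 on the array labelled as Ring1B KO against 487 on its control, 1.30-fold higher. Its signal on the array labelled as double KO was 1.81 times the floor, the smallest margin among the 5 collagen genes.

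Type V collagen, a minor component that helps to start fibrils and sets their width, is made of chains encoded by Col5a1 and Col5a2. Col5a1 read 151 on the array labelled as double KO against 587 on its control (3.88-fold lower), and 713 on the array labelled as Ring1B KO against 452 on its control (1.58-fold higher). Col5a2 read 197 on the array labelled as double KO against 705 on its control (3.57-fold lower), and 1089 on the array labelled as Ring1B KO against 673 on its control (1.62-fold higher). Both chains were lowest on the array labelled as double KO and highest on the array labelled as Ring1B KO. Col5a2 is the next gene beside Col3a1 in the RefSeq gene table, with no gene between them. The log2 differences of Col3a1 and Col5a2 were -1.73 and -1.84 in the double KO comparison and 0.38 and 0.69 in the Ring1B comparison.

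Promoter sequences of 4 of the 10 genes were examined. Those of the other genes, Lox among them, were not. The windows of 3 fibrillar collagen genes and Postn are shown. These genes differed in the same direction in each pair, as did every measured member, and their start regions are unlike in composition. Each run is 300 bases on the plus strand of GRCm38.p6 from RefSeq, 250 before the annotated start and 50 from it. Capitals mark 3 motifs searched on both strands. CCAAT is the letters of the CCAAT box. The GC box was searched as GGGCGG. The motif TATAAA is the core of a TATA element.
Col1a2, chr6:4505368-4505667: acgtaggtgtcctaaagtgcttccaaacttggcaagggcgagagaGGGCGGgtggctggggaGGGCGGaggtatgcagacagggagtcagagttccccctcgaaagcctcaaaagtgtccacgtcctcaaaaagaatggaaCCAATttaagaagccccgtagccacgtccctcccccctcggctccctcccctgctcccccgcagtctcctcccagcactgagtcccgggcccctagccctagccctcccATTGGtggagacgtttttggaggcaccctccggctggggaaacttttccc
Col3a1, chr1:45311288-45311587: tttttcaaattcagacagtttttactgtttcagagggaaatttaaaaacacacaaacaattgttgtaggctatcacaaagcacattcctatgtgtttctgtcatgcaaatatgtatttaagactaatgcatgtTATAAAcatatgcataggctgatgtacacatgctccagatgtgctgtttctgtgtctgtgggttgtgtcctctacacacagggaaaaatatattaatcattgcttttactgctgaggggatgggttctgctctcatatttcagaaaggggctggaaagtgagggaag
Col5a1, chr2:27886175-27886474: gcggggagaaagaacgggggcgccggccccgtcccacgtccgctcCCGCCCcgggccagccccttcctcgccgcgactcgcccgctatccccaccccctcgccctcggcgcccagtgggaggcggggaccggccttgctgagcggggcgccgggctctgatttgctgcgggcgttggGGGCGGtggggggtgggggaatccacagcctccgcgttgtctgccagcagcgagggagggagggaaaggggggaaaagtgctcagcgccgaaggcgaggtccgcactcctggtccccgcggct
Postn, chr3:54360857-54361156: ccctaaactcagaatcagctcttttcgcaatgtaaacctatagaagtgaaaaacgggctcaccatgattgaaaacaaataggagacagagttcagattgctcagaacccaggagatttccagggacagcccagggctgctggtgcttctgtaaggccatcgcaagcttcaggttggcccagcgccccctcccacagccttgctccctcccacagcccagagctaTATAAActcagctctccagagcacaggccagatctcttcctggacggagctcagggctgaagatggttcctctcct

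The letters G and C made up 61% of the Col1a2 window, 37.7% of that of Col3a1, 75% of that of Col5a1 and 53% of the Postn window shown, against a median of 52.7% over 32817 promoter windows. The dinucleotide CG occurred 34 times in the Col5a1 window and 0 times in that of Col3a1. CCAAT occurred in the Col1a2 window alone of the 4 shown, at 2 places, and 37.4% of all windows hold it. GGGCGG occurred in the Col1a2 and Col5a1 windows, at 2 places each, and in 35.6% of all windows. TATAAA began 26 bases before the annotated start in the Postn window and 117 bases before it in that of Col3a1, and 13.6% of all windows hold it. Another annotated start of Postn, not shown, had 40% G and C and 1 CCAAT. These matches describe the letters in these windows and bear on no factor.

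Postn encodes periostin, a secreted protein of collagen-rich tissue and of wound fibroblasts. Its difference in the double KO comparison was the largest of the 9 measured genes, at 84.7 on the array labelled as double KO against 356 on its control, or 4.21-fold lower. It read 458 on the array labelled as Ring1B KO against 356 on its control, 1.29-fold higher. The control arrays gave almost equal signals for Postn.

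Lox encodes lysyl oxidase, the copper enzyme that cross-links collagen and elastin. It read 425 on the array labelled as double KO against 1671 on its control (3.94-fold lower), and 1349 on the array labelled as Ring1B KO against 893 on its control (1.51-fold higher). A further bright Lox probe set gave 398 on the array labelled as double KO against 1496 on its control, and 1398 on the array labelled as Ring1B KO against 851 on its control. Both probe sets put the control of the double KO highest.

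Thy1 encodes a cell-surface glycoprotein, also called CD90, that fibroblasts, neurons and T cells carry. It read 118 on the array labelled as double KO against 289.8 on its control, 2.46-fold lower, the smallest measured difference among the 10 genes in that comparison. It read 615 on the array labelled as Ring1B KO against 368 on its control, 1.67-fold higher, the largest in that comparison. Without Thy1 the other 8 measured genes lay between 3.33-fold and 4.21-fold lower on the array labelled as double KO. Of 6 neuronal genes examined beside Thy1, 2 were higher by 2-fold or more and none lower by as much on the array labelled as double KO, led by Tubb3 (neuronal tubulin) at 243 against 96.2 on its control and Stmn2 at 4438 against 2141. In the Ring1B comparison 1 of them, Nefm, was at least 2-fold higher, and the median over 5 genes was -0.22.

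Dcn and Lum encode decorin and lumican, small leucine-rich proteoglycans that coat collagen fibrils, and they are neighbours in the gene table with no gene between them. Both were at or near the floor on most arrays. Dcn read 54.7 on the array labelled as double KO against 206 on its control (3.76-fold lower), and 58.2 on the array labelled as Ring1B KO against 45.4 on its control (1.28-fold higher). The control of the double KO thus stood alone, with the other 3 Dcn signals between 1.24 and 1.59 times the floor. Lum was above the floor only on the control of the double KO, at 48.5, and was at least 1.33-fold lower on the array labelled as double KO. Lum had no difference in the Ring1B comparison, since both signals were at the floor.

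**Figure D2:**
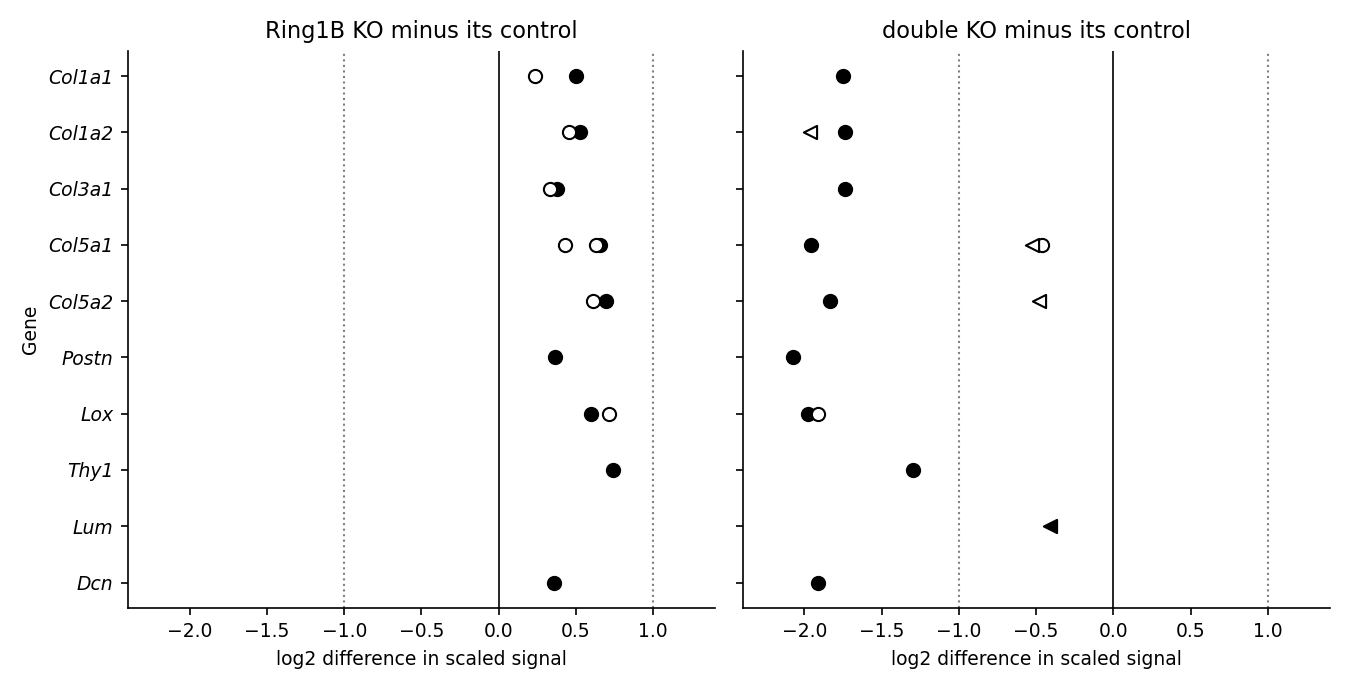
Log2 difference in scaled signal (horizontal axis) for every probe set of the stromal matrix genes (rows) that was above the floor on at least 1 array of the pair, in the Ring1B comparison (left) and the double KO comparison (right). Filled symbols are the brightest probe set of each gene, open symbols its other probe sets, triangles lower bounds and dotted lines 2-fold; all points lie above 0 on the left and below 0 on the right.

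The probe sets of a gene agreed in direction within each pair, but not always in size. Of the 20 probe sets, 11 were above the floor on all arrays, 6 on some and 3 on none. All 15 that could be compared were lower on the array labelled as double KO, 11 of them at least 2-fold, and all 16 that could be compared were higher on the array labelled as Ring1B KO. A dimmer Col5a1 probe set (1434479_at) read 73.7 on the array labelled as double KO against 102 on its control, only 1.38-fold lower. The brightest one (1416740_at) was 3.88-fold lower. A dimmer Col1a2 probe set (1423110_at) read 21.7, at the floor, against 143 on the control, at least 3.90-fold lower. For the dimmer Col1a1 probe set (1455494_at) both arrays of the double KO pair were at the floor, while it read 237 on the array labelled as Ring1B KO against 201 on its control. The log2 signals of all probe sets of a gene were also averaged. Then 5 of the 10 genes were at least 2-fold lower on the array labelled as double KO, beside 865 of all genes. Col1a1, Col3a1, Col5a1 and Dcn differed by -0.88, -0.87, -0.98 and -0.96. Raising the floor to the 60th percentile of signals left 7 genes at least 2-fold lower, beside 530 of all genes. Col3a1 and Dcn then differed by -0.80 and -0.70.

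The 9 genes with a measured difference in both comparisons covered a narrow span of sizes. Their log2 differences ran from -2.07 to -1.30 in the double KO comparison, a span in which 3.95% of the other genes measured on both arrays lay, and from 0.36 to 0.74 in the Ring1B comparison, a span that held 11.8% of them. The standard deviation across the 9 genes was 0.23 and 0.15, and across all genes measured on both arrays it was 0.65 and 0.50. These are spreads between genes and not errors of measurement.

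The control arrays, both labelled wild-type, differed from each other for single genes by up to as much as the members differed within a pair. The control of the double KO minus the Ring1B control had a median of 0.03 over the 10 genes, with 5 higher and 5 lower at any size, against 57.1% and 42.9% of genes. Dcn was 4.53-fold higher on the control of the double KO (206 against 45.4), and 12.2% of 12645 genes were at least 2-fold higher there. Col3a1 was 2.20-fold lower (221 against 487), and 8.15% of genes were at least 2-fold lower. Lox was 1.87-fold higher and Col1a1 1.84-fold lower. The standard deviation across the 9 genes was 0.99, against 0.84 across all genes. Type I chains parted here, since Col1a2 was only 1.07-fold lower. At their brightest probe sets the within-pair differences of Col1a1 and Col1a2 were only -0.03 (Ring1B) and -0.01 (double KO) apart on the log2 scale.

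**Figure D3:**
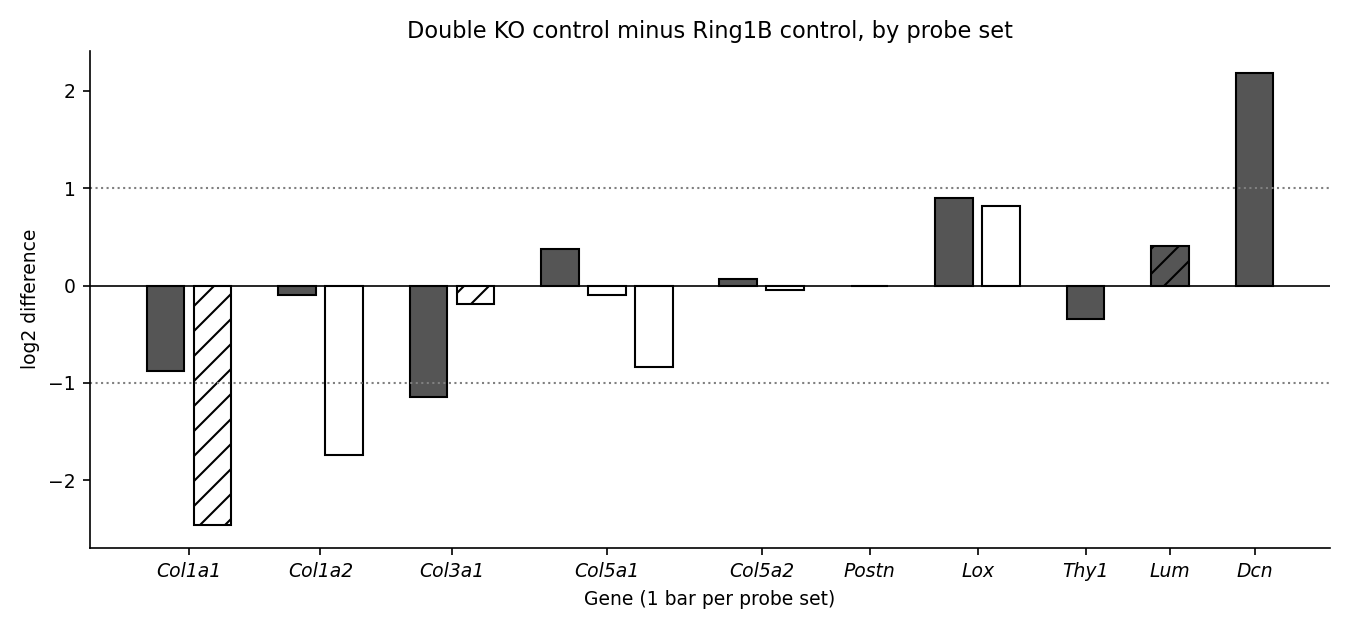
Log2 difference between the control arrays (double KO control minus Ring1B control, vertical axis) for each member probe set above the floor on at least 1 of them, 1 bar per probe set. Dark bars are the brightest probe set of each gene, white bars its other probe sets, hatched bars are lower bounds and dotted lines mark 2-fold; the Col1a1 and Col1a2 bars show how far probe sets of a gene differed.

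Between the controls the probe sets of a gene also disagreed. At 1455494_at Col1a1 was at least 5.51-fold lower on the control of the double KO, against 1.84-fold at 1423669_at. At 1423110_at Col1a2 was 3.34-fold lower (143 against 478), against 1.07-fold at 1450857_a_at. Col5a1 was 1.30-fold higher at 1416740_at and 1.78-fold lower at 1434479_at. Levels of the collagen genes across the pairs therefore depended on the probe set read, while the direction within a pair did not. The Ring1B pair and the double KO pair also had unlike means as deposited, so this comparison rests on the scaling. With signals as deposited, 0 of the 10 genes were higher by 2-fold or more and 7 lower by as much on the control of the double KO. Over all genes the counts were then 96 and 8887. Among the members, Col5a1, Col5a2, Lox and Lum changed direction.

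The comparison of the double KO with its control depended less on scaling. With arrays brought to a common median in place of a common trimmed mean, the calls over all genes were split into 769 higher and 841 lower, in place of 373 and 1234, and the median of genes measured on both arrays was 0.25 in place of -0.02. The stromal matrix median was then -1.50 and 9 of the 10 genes were still at least 2-fold lower. For the controls, deposited signals gave 96 higher and 8887 lower, in place of 1542 and 1031, with a median of -1.44 in place of 0.14.

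Genes that process collagen mostly went the way of the stromal members, but their differences were more mixed in size. Of 19 maturation genes on the arrays, 5 were lower by 2-fold or more and none higher by as much on the array labelled as double KO, among 17 above the floor, with a median of -0.48. In the Ring1B comparison 3 of 19 were higher by 2-fold or more and none was lower by as much, with a median of 0.47. Serpinh1, which encodes the collagen chaperone HSP47, read 462 on the array labelled as double KO against 1837 on its control (3.98-fold lower), and 5129 on the array labelled as Ring1B KO against 2247 on its control (2.28-fold higher). Bmp1, the protease that trims the C-terminal propeptide of fibrillar procollagens, read 58.3 on the array labelled as double KO against 727 on its control, 12.5-fold lower. It read 102 on the array labelled as Ring1B KO against 69.8 on its control. The control of the double KO thus stood alone for Bmp1.

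P4ha2, a subunit of the enzyme that hydroxylates proline in collagen, was 2.53-fold lower on the array labelled as double KO (163 against 412 on its control) and 3.97-fold higher on the array labelled as Ring1B KO (1116 against 281 on its control). The lysyl oxidase relatives Loxl1 and Loxl3 were 2.99-fold and 2.71-fold lower on the array labelled as double KO. Tll1, a relative of Bmp1, was 2.19-fold higher on the array labelled as Ring1B KO (98.2 against 44.9 on its control). Of 6 further fibrillar collagen genes, 4 were above the floor in each comparison. Only Col2a1, the cartilage collagen, was at least 2-fold lower on the array labelled as double KO (102 against 354 on its control, 3.49-fold). In the Ring1B comparison Col2a1 had only a bound, at least 1.88-fold higher (68.9 on the array labelled as Ring1B KO against 5.15, at the floor, on its control), which leaves unknown whether it reached 2-fold. It passed 2-fold with signals as deposited (log2 difference 1.73) and when the floor was lowered to the 20th percentile (2.54). The other 3 genes were less than 2-fold apart there.

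Other matrix genes mostly went the way of the stromal members. Of 26 on the arrays, 11 were lower by 2-fold or more and none higher by as much on the array labelled as double KO, among 18 above the floor (median -1.35), and 2 of 17 were at least 2-fold higher on the array labelled as Ring1B KO (median 0.47). Tgfbi, which encodes a secreted relative of periostin, was 5.29-fold lower on the array labelled as double KO (54.9 against 290.5) and 2.69-fold higher on the array labelled as Ring1B KO (231 against 85.9). Col6a2, a type VI collagen chain, was at least 5.39-fold lower on the array labelled as double KO, Thbs2 4.88-fold and Fbln5 3.96-fold lower. Sparc, a collagen-binding protein also made by parietal endoderm, was 2.22-fold higher on the array labelled as Ring1B KO, Fbln5 1.87-fold and Mfap5 1.72-fold. Fn1, a bright gene of this list, went the other way in both comparisons. Its log2 difference was 0.28 in the double KO comparison and -0.18 in the Ring1B comparison. Eln was lower in the Ring1B comparison (-0.24).

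Fibroblast markers outside the member list mostly differed in the same direction as the stromal matrix genes. Their summed signal over 22 genes was 2510 on the array labelled as double KO against 6260 on its control, and 15736 on the array labelled as Ring1B KO against 9847 on its control. That of the 10 members was 1543 on the array labelled as double KO against 5541 on its control, and 7520 on the array labelled as Ring1B KO against 5118 on its control. Bright genes weigh most in such sums. Among the fibroblast markers S100a4 read 3844 on the array labelled as Ring1B KO against 2219 on its control. Of 18 markers above the floor, 13 were lower by 2-fold or more and none higher by as much on the array labelled as double KO (median -1.51). Of 21, 2 were higher by 2-fold or more and none lower by as much on the array labelled as Ring1B KO (median 0.59). At any size 18 of these 21 were higher and 3 lower. The lower ones were Fap, Fbln1 and Sfrp1, at log2 differences of -0.28, -0.29 and -0.01. Fbln1 and Sfrp1 were only 1.34-fold and 1.37-fold lower on the array labelled as double KO. None of the 22 was at 0, and 1 was at the floor on all arrays. Prrx1, a mesenchymal transcription factor gene, was 3.57-fold lower on the array labelled as double KO (63.7 against 228), Fbln2 4.19-fold (182 against 762), Timp3 6.51-fold (43.9 against 286) and Nt5e at least 4.61-fold. On the array labelled as Ring1B KO, Pdgfra, a receptor of mesenchyme and of primitive endoderm, was 4.92-fold higher (1247 against 253), Nt5e 2.55-fold, Cav1 1.94-fold and Timp3 1.88-fold. Of the markers measured on both arrays, 8 of 15 lay within the members' span of differences in the double KO comparison and 3 of 20 in the Ring1B comparison. The part of fibroblast content in the members' differences was not tested.

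**Figure D4:**
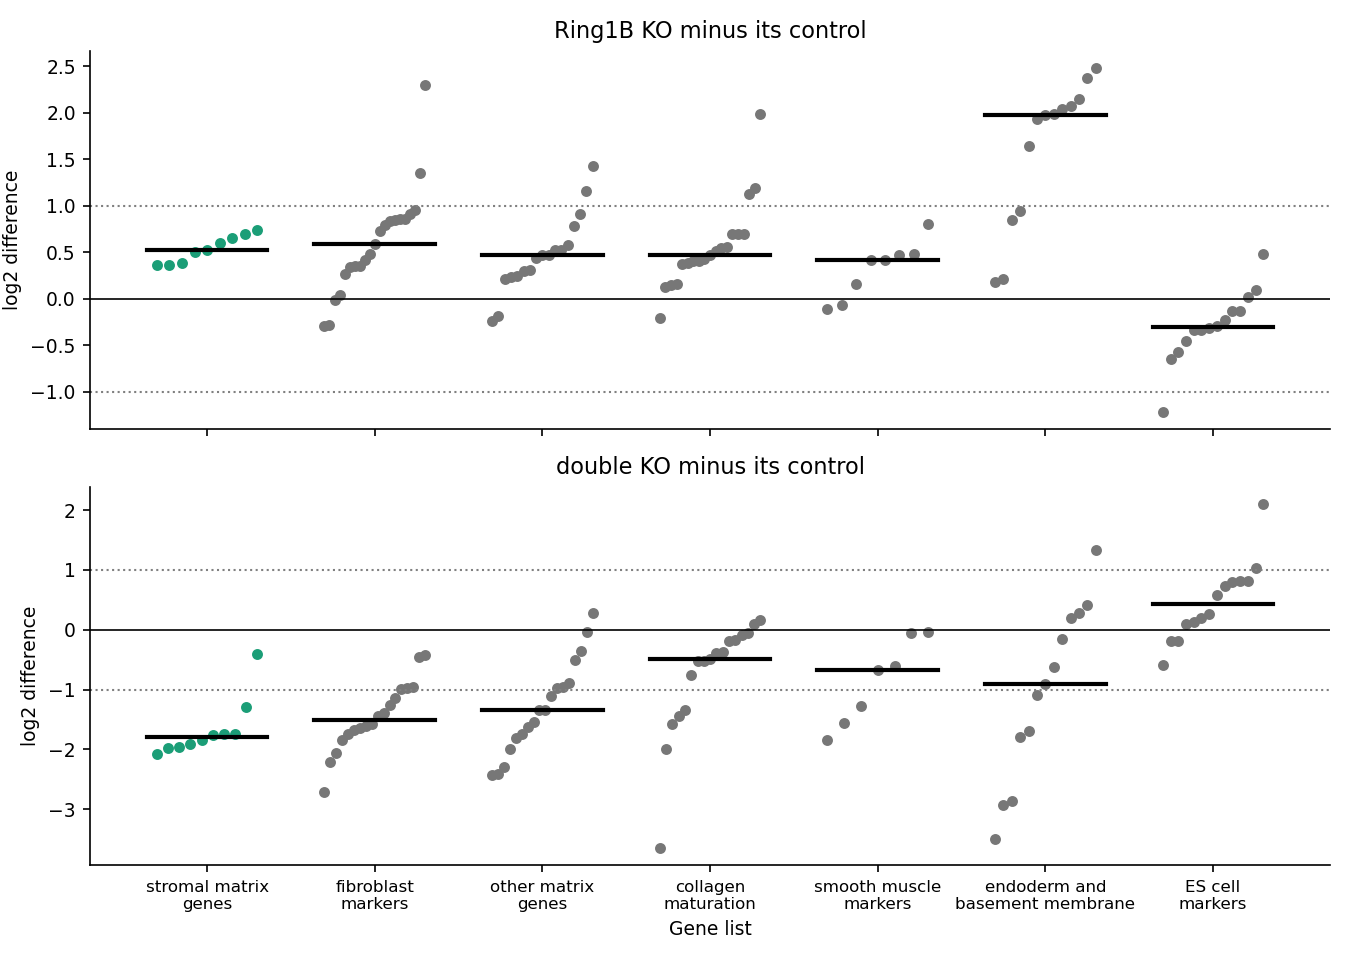
Log2 difference of each gene above the floor on at least 1 array of the pair (vertical axis, bounds included), by gene list, in the Ring1B comparison (top) and the double KO comparison (bottom). Each point is a gene, black bars are list medians and dotted lines mark 2-fold; the stromal matrix genes (green) have medians of 0.53 and -1.79, and the ES cell markers lie mostly on the opposite side of 0.

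Other cell types were read from their markers beside these values. Of 8 smooth muscle and myofibroblast markers, 3 were at least 2-fold lower on the array labelled as double KO, among them Acta2, smooth muscle actin, at 420 against 1502 on its control, and none reached 2-fold in the Ring1B comparison, where 2 of the 8 had only a bound (medians -0.68 and 0.42). Of 13 endoderm and basement membrane genes, 6 were at least 2-fold lower and 1 higher on the array labelled as double KO (median -0.91), and 9 were at least 2-fold higher on the array labelled as Ring1B KO (median 1.97), a larger difference than that of any stromal member. Col4a1, a basement membrane collagen, read 239 on the array labelled as double KO against 1815 on its control, and 3906 on the array labelled as Ring1B KO against 984 on its control. Lama1 of the same list was the 1 gene at least 2-fold higher on the array labelled as double KO (513 against 203 on its control). Lamc1, Nid1 and Nid2 were higher there too, at log2 differences of 0.42, 0.29 and 0.20. The remaining 9 of the 13 were lower. Of the ES cell markers 2 of 14 were at least 2-fold higher on the array labelled as double KO (median 0.43) and 1 was at least 2-fold lower on the array labelled as Ring1B KO (median -0.31). Among 9 endothelial and blood markers 6 were at the floor on all arrays, and the other 3, Pecam1, Tek and Cd68, were at least 2-fold higher on the array labelled as double KO and at least 2-fold lower on the array labelled as Ring1B KO. Of 6 cartilage and bone markers 3 were at the floor on all arrays, and only Alpl was at least 2-fold lower on the array labelled as double KO. Of 3 sex-linked genes above the floor, 2, Uty and Eif2s3y, were at least 2-fold higher on the array labelled as Ring1B KO and none was 2-fold apart in the double KO comparison. Xist read 136 on the array labelled as double KO against 159 on its control, and 315 on the array labelled as Ring1B KO against 419 on its control, while Eif2s3y read 133 on the array labelled as double KO against 120.5 on its control, and 459 on the array labelled as Ring1B KO against 120.4 on its control. The part of these cell types in the members' differences was not tested.

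The genes whose pattern over the 4 arrays lay closest to the mean of the 10 members were Aebp1, Pmaip1, Ncs1, H1f2, Nfkbiz and Crim1. Likeness was the root mean square distance between centred log2 signals over 4 arrays, among 10031 other genes above the floor on all arrays. The distances ran from 0.05 for Aebp1 to 0.09 for Crim1, against a median of 0.85. Aebp1, which encodes a collagen-binding matrix protein, read 103 on the array labelled as double KO against 302 on its control, and 400.4 on the array labelled as Ring1B KO against 272 on its control. Among the members, Col5a1 lay closest to the mean at 0.12 and Dcn farthest at 0.99. With 4 arrays such a ranking is a description only.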

How the data were processed

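Total RNA of 4 ES cell cultures was hybridised to 1 array each, with 45101 probe sets. The deposited values are signal intensities on a linear scale. MAS5 is the tool named for the authors' step in the submitters' processing notes; its version and settings are not given in the sources used here. The deposited 2%-trimmed mean was 500.0 for both Ring1B arrays, 147 for the double KO array and 160 for its control. Each array was therefore multiplied to a common 277 (factors 0.554, 0.554, 1.89 and 1.73). Signals were floored at 36.6, their 40th percentile, and log2-transformed. MAS5 signals near the floor are imprecise, and flooring makes the differences of dim genes smaller. Symbols came from the platform annotation, and 10 of 10 member symbols matched the RefSeq gene table. Of all probe sets 932 had several symbols and 9211 none here, and control probe sets were left out. The probe set with the highest mean log2 signal stood for a gene.

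No test was run, since each group had 1 array, whose number limits the precision. All members were named. From 12 further lists the rule took the targets, collagen maturation and fibrillar genes at least 2-fold apart, and up to 4 genes per remaining list and comparison with the largest differences, of which a part is printed. Likeness covered genes not of clone type. Members and lists were chosen with earlier results of these data known. The steps were checked on simulated data with less spread than these arrays. Changes were planted only in genes well above the floor, so their recovery in dim genes was not checked. Alternatives were other scalings, floors, probe set rules and fold thresholds. Python 3.11.15, pandas 2.3.3 and scipy 1.17.1 were used.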

Additional observations from a re-analysis of the deposited data

Results flagged for a closer look

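For 9 of the 10 genes the array labelled double KO and the array labelled Ring1B KO lay on opposite sides of their own controls. The difference between the comparisons (double KO difference minus Ring1B difference, log2) was -2.25 for Col1a1, -2.26 for Col1a2, -2.11 for Col3a1, -2.61 for Col5a1, -2.53 for Col5a2, -2.44 for Postn, -2.57 for Lox, -2.04 for Thy1 and -2.27 for Dcn. With 1 array per group these differences were not tested. Rnf2 and Ring1 showed no loss that would check the labels. If the labels of 1 pair were exchanged, both differences of a gene would lie on the same side and these values would not hold. Lum had no difference in the Ring1B comparison.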

How the results depend on the processing

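No paired analysis was possible because each group holds 1 array and the labels give no replicate numbers. A median was taken to have moved when it shifted by more than 1.5-fold or changed sign, and a count when it changed by more than 1.5 times. Within the pairs, each difference reported for a member kept its direction under every scaling, floor and probe set rule that allowed it to be compared. Lum, with no reported difference in the Ring1B comparison, read 17.6 on the array labelled as Ring1B KO against 34.3 on its control. A floor below these signals put Lum lower there. The members' median lay between 0.36 and 0.56 in the Ring1B comparison and between -1.91 and -1.07 in the double KO comparison. Averaging over probe sets gave the lowest size, with a median of -1.07 and 5 genes at least 2-fold lower, beside 865 of all genes. The median of the difference between the comparisons was then -1.56 (-2.27 as reported). At 1.5-fold, 4 members were higher in the Ring1B comparison, beside 1180 of all 12343 genes compared. The median between the control arrays (0.03) was -1.61 as deposited, -0.020 under quantile normalization, -0.000295 with the floor at the 60th percentile and -0.091 with averaged probe sets. Members at least 2-fold higher and lower there numbered 0 and 7 as deposited, beside 96 and 8887 of all genes. With the 60th percentile floor 0 were higher, beside 982 of all genes. At 1.5-fold 2 and 2 passed, beside 3298 and 2147 of all genes, and 0 were lower by 3-fold, beside 367.

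Over all genes, calls higher and lower in the Ring1B comparison numbered 880 and 762 with the 20th percentile floor, 168 and 152 with the 60th, 1180 and 1123 at 1.5-fold and 120 and 57 at 3-fold. In the double KO comparison they numbered 928 and 2172, 218 and 530, 1099 and 2433, and 122 and 435 in the same order, with 232 higher as deposited and 769 with a common median. Between the controls they were 96 and 8887 as deposited, 982 and 638 with the 60th percentile floor, 3298 and 2147 at 1.5-fold and 510 and 367 at 3-fold, with 1748 lower at the 20th percentile floor and 992 higher with averaged probe sets. Among named genes at least 2-fold apart as reported, those that changed sign did so between the controls: as deposited, Colgalt1 (-0.30), Fbln5 (-0.13), Nid2 (-0.53), Pcolce2 (-0.12), Sparc (-0.11), Thbs2 (-0.13) and Uty (-0.31), and Uty (-0.32) without the _s_at, _x_at and _a_at probe sets. Smaller differences changed sign too, in all 3 comparisons; between the controls as deposited these include the members Col5a1 (-1.26), Col5a2 (-1.57), Lox (-0.74) and Lum (-0.72). Thresholds and floors change counts by construction; other causes were not tested. Dcn, Lum and Col3a1, closest to the floor, are the least precise members.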
